A study of Mus musculus with 7 samples.

Results

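The IL-12 family of cytokines and the transcription factor T-bet were described in CD11b+ dendritic cells (DCs) that had carried inhaled material from the lung to the lymph node. The 8 genes were taken by symbol from the deposited gene tables: the cytokine chains Il12a (p35), Il12b (p40), Il23a (p19), Il27 (p28) and Ebi3, the receptor chains Il12rb1 and Il12rb2, and Tbx21, which encodes T-bet. All 8 were found, among 48440 genes in each table. The study set 4 infant libraries (mice of 2 to 3 weeks) against 3 adult libraries (mice of 7 weeks) to ask which genes and signalling pathways differ with age. All animals were B6 mice that were given house dust mite allergen and lipopolysaccharide through the nose 24 hours before the mediastinal node was taken, so neither group is an untreated control. The cells were sorted as CD11c+ with high MHC class II and CD11b, and without B220, CD64 or CD103. Whether each library is 1 animal or a pool is not stated in the labels, and p-values therefore measure only how these libraries vary. In bulk RNA, fewer cells that express a gene and less of its RNA per cell cannot be told apart.

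The IL-12 family is built from shared chains. The p40 chain joins p35 to make IL-12, which drives interferon-gamma producing T helper 1 cells, or joins p19 to make IL-23, which sustains T helper 17 cells. EBI3, a relative of p40, joins p28 to make IL-27, which restrains or redirects T cells, and can join p35 to make IL-35. IL-12 is read by IL12RB1 with IL12RB2, IL-23 by IL12RB1 with IL23R, and IL-27 by IL27RA with gp130 (Il6st). T-bet is best known as the factor that commits T cells to the type 1 fate, and DCs express it as well.

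The libraries held 18022302 to 20377361 exon reads in infants and 20064331 to 22316484 in adults, and 12261 genes passed the filter on low counts. On the first principal component (36.5% of the variance) infant 2 lay at 65.7 and the other 6 libraries between -22.3 and 8.59. The deposited table of adult 3 carries a read name other than its label, so results that turn on infant 2 or adult 3 are also given without that library. Marker genes were read beside the labelled cell type. The 8 mature migratory DC markers, which include Ccr7 and Fscn1, summed to 14321 to 16523 CPM (exon reads scaled to a common library size) in infants and 16641 to 17586 CPM in adults. Itgam, which encodes CD11b, had 187 to 448 reads in infants and 349 to 370 in adults. Itgae, which encodes CD103, had 11 to 24 reads in infants and 31 to 66 in adults, and Fcgr1, which encodes CD64, had 162 to 555 and 216 to 474. Fcgr1 had more reads than Itgam in infant 2 (211 against 187), infant 3 (555 against 283) and adult 3 (474 against 356). In the other libraries it had fewer. These reads are not scaled by exon length.

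The promoters of 3 members are shown because their genes carry the differences described next, Ebi3 with every infant library above every adult library, Tbx21 the other way, and Il12b as the most abundant chain in adults. Each line gives the 250 bases before the RefSeq gene start in GRCm38.p6, 5′ to 3′ on the gene's own strand, with motif matches in capitals. Il12b is on chr11:44399813-44400062 (plus strand), Ebi3 on chr17:55952373-55952622 (plus strand) and Tbx21 on chr11:97115332-97115581 (minus strand). RefSeq entries were matched for 5 of the 8 members.
Il12b: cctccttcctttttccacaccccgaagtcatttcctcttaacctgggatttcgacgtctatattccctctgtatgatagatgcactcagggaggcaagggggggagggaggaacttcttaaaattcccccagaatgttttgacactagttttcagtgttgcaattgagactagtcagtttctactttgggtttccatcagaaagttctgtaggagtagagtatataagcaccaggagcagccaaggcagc
Ebi3: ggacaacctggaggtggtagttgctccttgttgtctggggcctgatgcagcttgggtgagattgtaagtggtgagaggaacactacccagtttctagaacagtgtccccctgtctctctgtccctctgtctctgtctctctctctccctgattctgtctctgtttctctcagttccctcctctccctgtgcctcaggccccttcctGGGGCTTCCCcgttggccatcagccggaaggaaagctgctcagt
Tbx21: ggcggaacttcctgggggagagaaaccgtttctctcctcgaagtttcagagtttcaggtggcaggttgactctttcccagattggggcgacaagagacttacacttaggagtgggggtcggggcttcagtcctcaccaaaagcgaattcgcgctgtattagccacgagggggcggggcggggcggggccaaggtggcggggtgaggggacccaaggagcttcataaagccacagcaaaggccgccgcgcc
Both strands were searched for 4 motifs, the NF-kB (kB) consensus, a pair of GAAA blocks with NN between them, as interferon regulatory factors bind, the AP-1 motif TGANTCA and the T-box motif AGGTGTGA. Only Ebi3 held a match among these 3 windows, GGGGCTTCCC at -44 to -35 from its start, a kB consensus. Over 27025 promoters of the same length, 3.75% held the kB consensus, 3.04% the interferon regulatory motif, 6.87% the AP-1 motif and 1.14% the T-box motif. A match of letters is a description of the sequence and no evidence of binding.

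Per kilobase of exon, the 2 beta-type chains Il12b and Ebi3 dominated the family in both groups. Their order in infants depends on which reads are counted and over what exon length. With all exon reads, Ebi3 stood first in infants at 133 ± 24.4 CPM per kb and Il12b second at 107 ± 14.9 CPM per kb, with overlapping ranges (SD, n = 4). In adults Il12b stood first at 133 ± 23.7 CPM per kb and Ebi3 second at 85.6 ± 3.79 CPM per kb, with ranges that did not overlap (SD, n = 3). With uniquely mapped reads, Ebi3 stood at 104 ± 19.6 CPM per kb in infants (SD, n = 4), next to 107 for Il12b, and at 67.1 ± 1.91 CPM per kb in adults (SD, n = 3), next to 133 for Il12b. Unique reads were divided by the full exon length, although 270 exon bases of Ebi3 are shared with Gm16712, an antisense gene on the other strand. Reads on shared bases may not count as unique, so the unique level of Ebi3 may be too low in both groups. All other orders given here are of all exon reads. Il12rb2, Il27 and Tbx21 followed at 6.71, 4.29 and 3.01 CPM per kb in infants. In adults Il12rb2 stood at 9.25, Tbx21 at 5.13 and Il27 at 4.74 CPM per kb. Tbx21 and Il27 overlapped in both groups, as did Il12rb2 and Il27 in infants. Il12a at 0.532 CPM per kb in infants and 0.479 in adults, and Il12rb1 at 0.249 and 0.377, lay lower and overlapped each other in both groups, and Il23a came last, though in adults it overlapped Il12rb1.

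**Figure D1:**
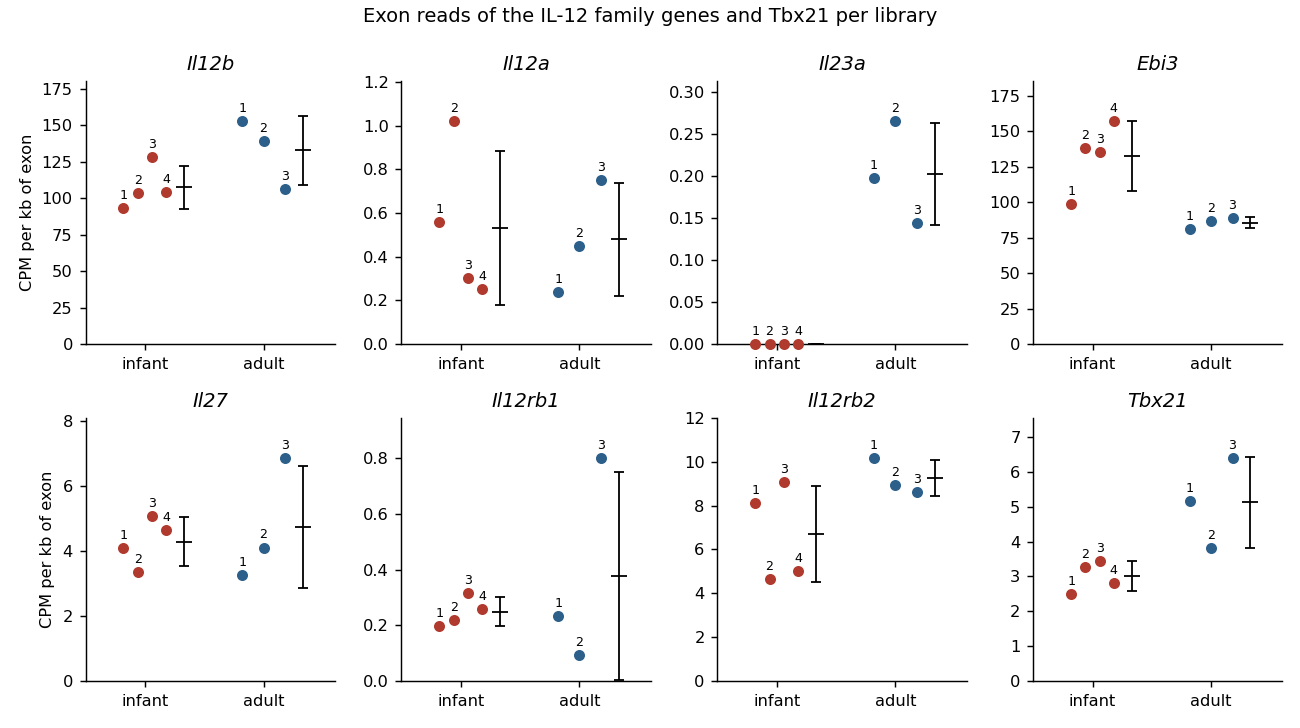
Exon reads of each of the 8 genes in every library, as CPM per kilobase of exon on a linear axis that starts at 0, with the library number above each point and the mean ± SD beside each group (infants n = 4, adults n = 3). Ebi3 lay higher in every infant library than in any adult library, Tbx21 lay lower, and Il23a was at 0 in all 4 infant libraries.

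No member passed the edgeR quasi-likelihood test at a Benjamini-Hochberg adjusted p of 0.05 over all 12261 genes, where 2 genes (0.0163%) passed, 1 higher and 1 lower in infants (0.00816% each). None passed by limma-voom either, where 3 genes (0.0245%) did, 1 higher (0.00816%) and 2 lower (0.0163%). At an unadjusted p under 0.05, Ebi3 was higher and Tbx21 lower in infants, beside 6.53% and 6.73% of all tested genes in those directions. These were also the members that passed the filter and whose groups did not overlap, beside 7.97% of genes with every infant library above every adult library and 7.58% with the reverse. Il23a, with 18 reads in all, did not pass the filter and is described from its reads.

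Ebi3, the chain that IL-27 and IL-35 share, had 2442, 3082, 2783 and 3452 exon reads in infants 1 to 4 and 2120, 2254 and 2115 in adults 1 to 3. As CPM these were 116, 162, 159 and 184 in infants and 95.2, 102 and 104 in adults. Infant 1 was the lowest infant, and it still lay above the highest adult. The mean was 155 ± 28.5 CPM in infants (SD, n = 4) and 100.2 ± 4.44 CPM in adults (SD, n = 3), and edgeR put the log2 fold change at 0.63 with an SE of 0.16 (unadjusted p = 0.00256, adjusted p = 0.246). DESeq2 gave an adjusted p of 0.0274 and called it, beside 1.57% of all genes, 0.595% higher and 0.979% lower in infants. Over 21 alternative settings its log2 fold change ran from 0.52 to 0.75 and its adjusted p from 0.0274 to 0.693. Of its exon reads, 21.4% were not uniquely mapped, and 270 bases of its exons are shared with Gm16712, an antisense gene on the other strand. Of the Gm16712 reads, 98.5% were not uniquely mapped. How much of the 21.4% comes from the shared bases was not tested. Reads across exon junctions of Ebi3 gave 113 ± 20.8 CPM in infants (SD, n = 4) and 73.6 ± 2.18 in adults (SD, n = 3), with a log2 fold change of 0.62.

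Il27, which encodes p28, the partner of EBI3, had 88, 65, 91 and 89 exon reads in infants 1 to 4 and 74, 93 and 143 in adults 1 to 3. As CPM, adult 3 was the highest library and adult 1 the lowest, so the adults spanned all 4 infants. The means were 4.38 ± 0.765 CPM in infants (SD, n = 4) and 4.84 ± 1.93 CPM in adults (SD, n = 3), and edgeR put the log2 fold change at -0.14 with an SE of 0.30 (adjusted p = 0.852). Without adult 3 the log2 fold change was 0.22. EBI3 transcript exceeded p28 per kilobase in every library, by 24.1 to 41.1 times in infants and by 12.9 to 24.8 times in adults. On the log2 scale, Il27 over Ebi3 was lower in infants by a mean difference of -0.70, with overlapping groups (two-sided exact permutation p = 0.114, 0.160 adjusted over 7 ratios), and by -0.42 without adult 3.

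Il12b, the p40 chain of IL-12 and IL-23, had 3869, 3866, 4429 and 3851 exon reads in infants 1 to 4 and 6687, 6065 and 4275 in adults 1 to 3. In CPM that is 183, 203, 253 and 205 in infants and 300.3, 274 and 209.6 in adults. Adult 3 lay among the infants, below infant 3, while adults 1 and 2 lay above all 4. The log2 fold change in edgeR was -0.31 with an SE of 0.16 (adjusted p = 0.418), and it was -0.44 without adult 3 and -0.20 without adult 1. Intron reads, which come from unspliced RNA, numbered 13.1, 10.8, 8.44 and 7.76 per 100 exon reads in infants 1 to 4 and 8.08, 15.3 and 11.6 in adults 1 to 3, so these shares overlapped too.

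Il12a, the p35 chain that is particular to IL-12 and IL-35, was near the limit of detection. It had 20, 33, 9 and 8 exon reads in infants 1 to 4 and 9, 17 and 26 in adults 1 to 3. Its levels overlapped between groups, at 0.426 to 1.735 CPM in infants and 0.404 to 1.27 CPM in adults. Its log2 fold change in edgeR was 0.16 with an SE of 0.61 (adjusted p = 0.921), and it was -0.36 without infant 2 and -0.17 without adult 1. Per kilobase, p40 exceeded p35 by 163, 99.8, 403 and 392 times in infants 1 to 4 and by 609, 299.7 and 139.5 times in adults 1 to 3, with 0.5 reads added to each count. The log2 ratio of Il12a to Il12b was -7.82 ± 0.990 in infants (SD, n = 4) and -8.20 ± 1.06 in adults (SD, n = 3), a difference of 0.39 (two-sided exact permutation p = 0.629).

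Il23a, which encodes the IL-23 chain p19, had 0 exon reads in each of the 4 infant libraries and 6, 8 and 4 in adults 1 to 3. Every adult library had reads and no infant library did, a pattern whose share among genes below the filter was not counted. With 3 reads as the floor, a count of 0 allows up to 0.0392 CPM over the infant group, against 0.278 in adults. At that floor, and with the adult reads taken as exact, Il23a was 7.08-fold lower in infants. At the adult rate 21.2 reads would have fallen in the infant libraries. These limits cover counting error in the infant reads only, not in the few adult reads and not the spread between libraries. Of the 18 adult reads, 8 crossed an exon junction, and all 18 mapped uniquely. With no filter on low counts, edgeR gave Il23a an unadjusted p of 0.00421 and an adjusted p of 0.260. Other listed genes below the filter were Il10, Ifng and Eomes. Il10 lay at 0 to 0.158 CPM in infants and 0.343 to 0.449 in adults, and Ifng at 0 to 0.237 and 0.245 to 0.808, also without overlap. Eomes overlapped, at 0 to 0.568 and 0 to 0.135 CPM. In adults p40 exceeded p19 by 654 times per kilobase over the group. In infants it did so by at least 3688 times, with 3 reads as the p19 floor.

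The balance of the chains within each library does not depend on the scaling between libraries. The log2 ratio of Ebi3 to Il12b per kilobase was 0.09, 0.42, 0.08 and 0.59 in infants 1 to 4 and -0.91, -0.68 and -0.27 in adults 1 to 3. As a ratio, Ebi3 over Il12b was 1.06 to 1.51 in infants and 0.533 to 0.832 in adults. With uniquely mapped reads it was 0.837, 1.04, 0.828 and 1.20 in infants 1 to 4 and 0.427, 0.483 and 0.648 in adults 1 to 3. The groups did not overlap with either kind of read. Infants 1 and 3 lay above p40 with all reads and below it with unique ones over the full exon length of Ebi3. As 270 of those bases are shared with Gm16712, the unique ratios may be too low in both groups. The difference with all reads was 0.91 on the log2 scale, with p = 0.0571 by a two-sided exact permutation test. That is the smallest p that the 35 splits of 4 against 3 libraries can give (0.133 adjusted over 7 ratios), so no ratio could reach 0.05. With 1 library left out the difference ran from 0.77 to 1.09, with unique reads it was 0.92, and with exon junction reads 0.95. The ratios of Il23a to Il12b and to Il12a also set the groups apart, at differences of -3.17 and -3.56 with the same smallest p, but the infant values there rest on the 0.5 reads added to a count of 0. Which chain a level puts first also depends on the exon lengths in the files, 1170 bases for Ebi3 and 1967 for Il12b, whereas the difference between groups does not.

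**Figure D2:**
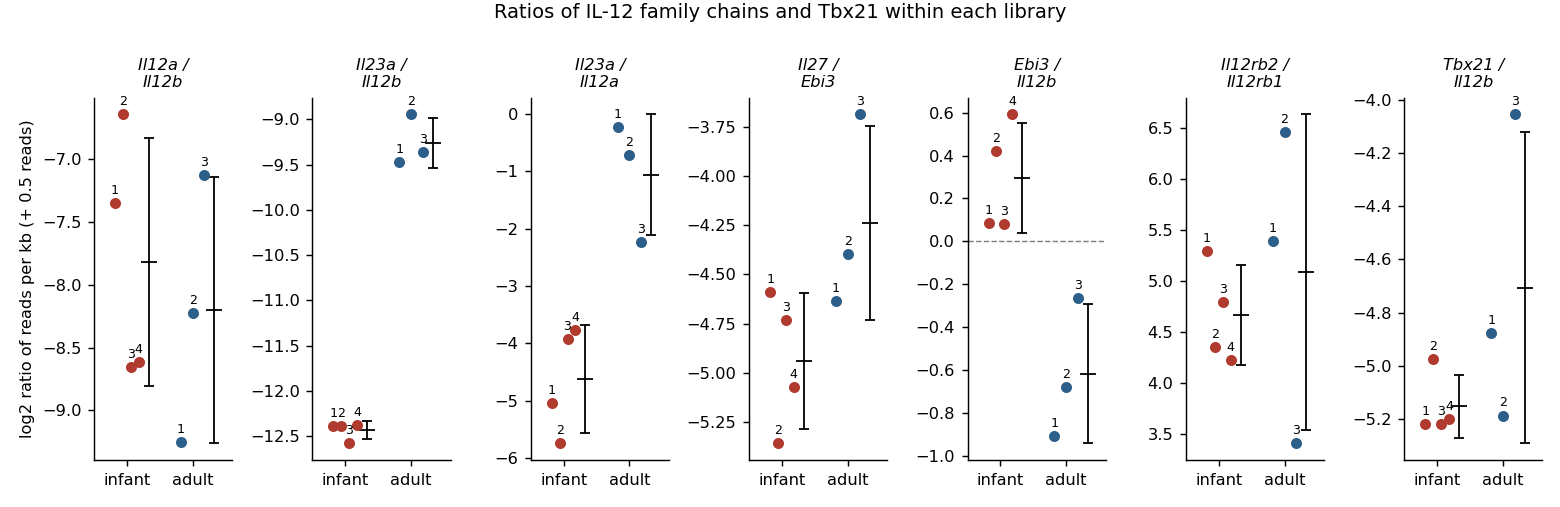
Log2 ratio of all exon reads (multi-mapped included) per kilobase for 7 gene pairs in each library, with the library number above each point, the mean ± SD beside each group (infants n = 4, adults n = 3) and a separate axis per pair. The dashed line marks equal levels of Ebi3 and Il12b, with the 4 infants above it (0.08 to 0.59) and the 3 adults below it (-0.91 to -0.27). With unique reads over the full Ebi3 exon length, infants 1 and 3 lie below it (-0.26 and -0.27). The 270 bases that Ebi3 shares with Gm16712 may lower those values. For the pairs with Il23a the infant points are set by the 0.5 reads added to 0.

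Tbx21, the T-bet gene, had 131, 155, 150 and 132 exon reads in infants 1 to 4 and 287, 210 and 325 in adults 1 to 3. As CPM these were 6.20, 8.15, 8.55 and 7.03 in infants and 12.9, 9.47 and 15.9 in adults. Every infant library lay below every adult library, with adult 2 the closest. The mean was 7.48 ± 1.07 CPM in infants (SD, n = 4) and 12.8 ± 3.23 CPM in adults (SD, n = 3), and edgeR put the log2 fold change at -0.77 with an SE of 0.22 (unadjusted p = 0.00613, adjusted p = 0.283). DESeq2 gave an adjusted p of 0.0703. Without adult 3, the highest library, the log2 fold change was -0.58, and over all settings it ran from -0.95 to -0.58. All Tbx21 reads mapped uniquely.

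Set against p40, Tbx21 was less clearly apart. The log2 ratio of Tbx21 to Il12b was -5.22, -4.98, -5.22 and -5.20 in infants 1 to 4 and -4.88, -5.19 and -4.05 in adults 1 to 3. Adult 2 lay among the infants, and the difference was -0.45 (two-sided exact permutation p = 0.114, 0.160 adjusted over 7 ratios). Without adult 3 it was -0.12.

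T cells and natural killer (NK) cells also express Tbx21 and Il12rb2, so their markers stand beside these genes. The 8 NK and innate lymphoid markers summed to 38.7 to 49.3 CPM in infants and 42.0 to 93.3 CPM in adults. Adult 1 had the highest sum and adult 3, which was highest for Tbx21, the lowest among adults. Klrd1 gave most of that sum, with 470 to 836 reads in infants and 637 to 1248 in adults. Nkg7 had 49 to 129 and 129 to 356 reads, Gzmb 5 to 8 and 6 to 60, and Ncr1, which defines NK cells, 20 to 38 and 11 to 93. Eomes, a relative of T-bet, had 0 to 12 and 0 to 3 reads. The 10 T cell markers summed to 127 to 158 CPM in infants and 140 to 193 CPM in adults, most of it Il7r. In adults 3, 1 and 2 they were 193, 149 and 140 CPM, the same order as Tbx21. Il7r by itself had that order, at 3694, 2907 and 2809 reads. Cd3g had it too, at 34, 33 and 9 reads, but Cd4 had the reverse, at 36, 90 and 141 reads. In infants the order of the T cell sum was not that of Tbx21. Infant 1 had the highest infant sum, 158 CPM, and the lowest Tbx21, and infant 2 had the lowest sum, 127 CPM, but not the lowest Tbx21. Of the T cell receptor complex, Cd3e had 3 to 23 reads in infants and 2 to 9 in adults, Cd3g 7 to 19 and 9 to 34, and Cd3d 10 to 13 and 6 to 13. At an unadjusted p under 0.05, Nkg7 (log2 fold change -1.09, SE 0.41) was the 1 NK marker of 6 tested that was lower in infants, and 0 of 7 tested T cell markers passed. Their part in the Tbx21 values was not tested.

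Il12rb2, the signalling chain of the IL-12 receptor, had 649, 337, 603 and 357 exon reads in infants 1 to 4 and 860, 753 and 666 in adults 1 to 3. Infants 2 and 4 stood low, while infant 3 at 34.4 CPM lay within the adult range of 32.7 to 38.6 CPM. The log2 fold change in edgeR was -0.46 with an SE of 0.23 (adjusted p = 0.409), and it was -0.33 without infant 2. These counts are uncertain. Il12rb2 shares 1519 exon bases with Serbp1 on the other strand, and the sources used here do not state a strand setting. Of the Il12rb2 exon reads, 35.2% were not uniquely mapped, against 1.11% of the Serbp1 reads. Transcripts of Il12rb2 also matched other genes in part, such as Srgap3 over 105 bases (90.5% identity) and Cer1 over 104 bases (92.3%). Where the 35.2% comes from was not tested. Serbp1 stood at 129 ± 9.07 CPM in infants (SD, n = 4) and 132 ± 6.76 CPM in adults (SD, n = 3). Reads across junctions of Il12rb2 gave 15.5 ± 4.59 CPM in infants (SD, n = 4) and 20.9 ± 1.86 in adults (SD, n = 3), a log2 fold change of -0.44.

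Il12rb1, the chain that the IL-12 and IL-23 receptors share, was low, at 12, 12, 16 and 14 exon reads in infants 1 to 4 and 15, 6 and 47 in adults 1 to 3. Adult 3 stood alone at 2.30 CPM, above all other libraries at 0.271 to 0.912 CPM. The log2 fold change in edgeR was -0.59 with an SE of 0.66 (adjusted p = 0.693) with adult 3 and 0.59 without it. Per kilobase Il12rb2 exceeded Il12rb1 by 18.7 to 39.3 times in infants and 10.6 to 87.8 times in adults. The difference in log2 ratio was -0.42, with overlapping groups (two-sided exact permutation p = 0.629). Without adult 3 it was -1.26, with infants at 4.22 to 5.30 and adults 1 and 2 at 5.39 and 6.46. Without adult 2 it was 0.26.

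**Figure D3:**
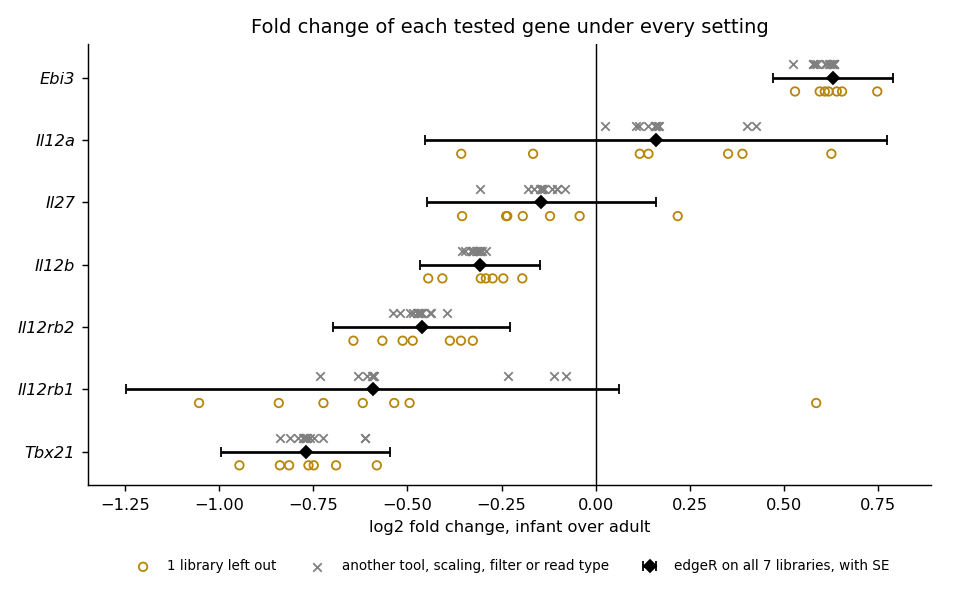
Log2 fold change, infant over adult, of the 7 members that could be tested, with the edgeR value on all 7 libraries and its SE (diamonds), the values with 1 library left out (circles) and those with another tool, scaling, filter or read type (crosses). Ebi3 stayed above 0 (0.52 to 0.75) and Tbx21 (-0.95 to -0.58), Il12b (-0.44 to -0.20) and Il12rb2 (-0.64 to -0.33) below 0, while Il12a, Il27 and Il12rb1 lay on both sides.

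The members were described beside 4 lists of other genes of the pathway, chosen with earlier results of these data known. No gene of these lists passed by edgeR over all genes, and counts are given at an unadjusted p under 0.05, where 13.3% of all tested genes lay. In the list of IL-12, IL-23 and IL-27 signalling, 6 of 12 tested genes were lower and 1 higher in infants, with a median log2 fold change of -0.39 against 0.0016 over all genes. Both chains of the IL-27 receptor were among the lower ones. Il27ra had 110, 86, 72 and 94 reads in infants 1 to 4 and 187, 203 and 154 in adults 1 to 3, and edgeR put the log2 fold change at -0.83 with an SE of 0.21 (adjusted p = 0.243). Il6st, which encodes gp130, stood at 24.2 to 47.6 CPM in infants and 65.8 to 73.5 CPM in adults and edgeR gave -0.93 with an SE of 0.21 (adjusted p = 0.202). For both, every infant library lay below every adult library.

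Il23r, the chain that IL12RB1 joins to read IL-23, was the gene of that list on the higher side and is singled out here with its values known. It had 215, 341, 265 and 239 reads in infants 1 to 4 and 218, 151 and 177 in adults 1 to 3. In CPM this was 10.2, 17.9, 15.1 and 12.7 in infants and 9.79, 6.81 and 8.68 in adults, with infant 1 just above adult 1. Its log2 fold change in edgeR was 0.73 with an SE of 0.23 (adjusted p = 0.298). Of the signalling proteins, Socs3, a feedback inhibitor, was at -1.17 (SE 0.27) on the log2 scale. Stat4, through which IL-12 signals, was at 326 ± 86.6 CPM in infants (SD, n = 4) and 326 ± 63.4 CPM in adults (SD, n = 3), or -0.0023 on the log2 scale (SE 0.22).

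Among 18 tested inducers and brakes of Il12b and Il23a transcription, 7 were lower and 0 higher in infants at an unadjusted p under 0.05, with a median log2 fold change of -0.21. Rel, an NF-kB subunit listed as an inducer, had 73.2 to 88.8 CPM in infants and 118 to 131 CPM in adults, which did not overlap. Its log2 fold change in edgeR was -0.66 with an SE of 0.12 (unadjusted p = 0.000215, adjusted p = 0.155). Nfkbiz, a nuclear IkB protein, was at -1.06 (SE 0.32), Nfil3, a repressor of p40 known from macrophages, at -0.77 (SE 0.18), and Atf3, another repressor, at -1.25 (SE 0.32). Irf8 and Batf3, which favour IL-12 production in cDC1 and were named with their values known, had log2 fold changes of 0.33 (SE 0.18) and 0.15 (SE 0.14). Il10, a brake on IL-12, had 31 reads over all libraries and was not tested.

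Of 19 tested type 1 response genes, 2 were higher and 4 lower in infants at an unadjusted p under 0.05, with a median log2 fold change of -0.21. Hlx, a partner of T-bet in T cells, was at 57.3 ± 8.66 CPM in infants (SD, n = 4) and 40.7 ± 8.30 CPM in adults (SD, n = 3), or 0.49 on the log2 scale (SE 0.18). Cd70, a co-stimulatory ligand, was at 0.51 (SE 0.18). Cxcl10, an attractant of type 1 T cells, was at -1.06 (SE 0.42) and Runx1 at -0.82 (SE 0.22). Ifng had 44 reads over all libraries and was not tested. Of 12 tested genes of type 17 priming, 4 were lower and 0 higher, with a median of -0.45. They were Ptgs2, which makes prostaglandins, at -3.45 (SE 0.46), Il1b at -0.93 (SE 0.30), Cd80 at -0.70 (SE 0.18) and Il6 at -0.48 (SE 0.18).

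**Figure D4:**
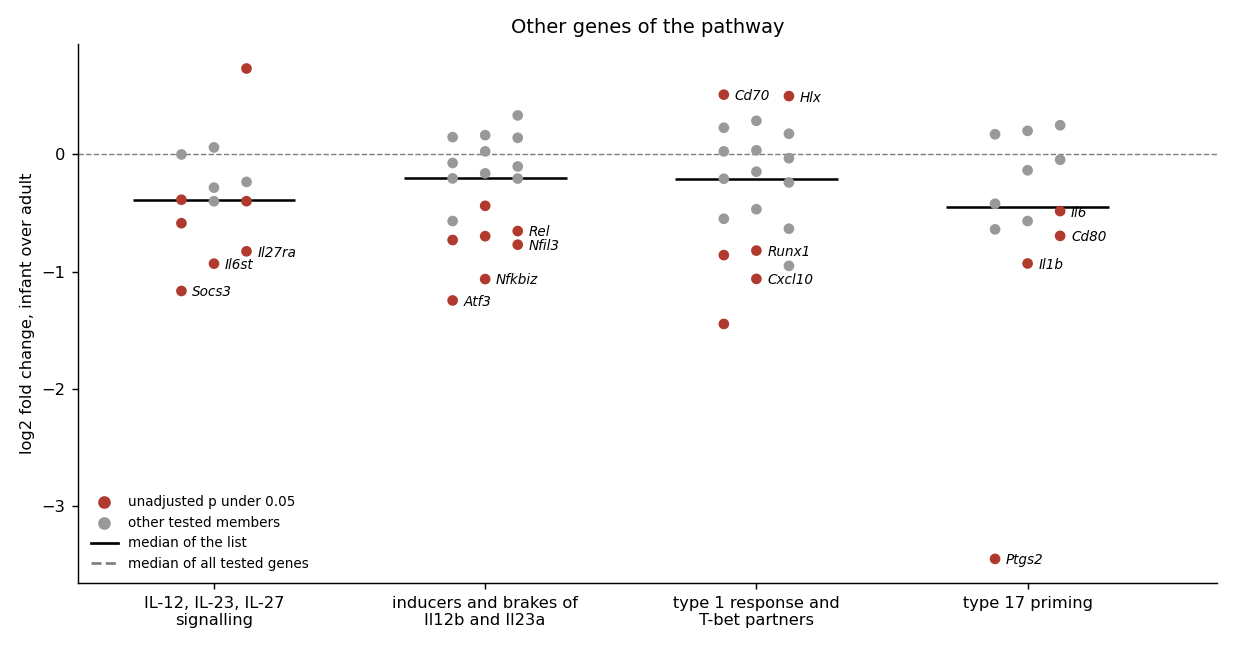
Log2 fold change, infant over adult, of each tested gene in 4 pathway lists, with genes at an unadjusted p under 0.05 in red, up to 4 of the genes with the smallest p named, a black line at each list's median and a dashed line at the median of all tested genes (0.0016). Most red points lie below 0, and no gene passed after adjustment over all genes.

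The genes whose levels followed each member most closely over the 7 libraries were found by Pearson's r of log2 CPM. These values describe 7 libraries that share their age difference, and each is the closest of 7976 genes. Ebi3 was followed by Mlf2 (r = 0.98), Phkg2 (0.97) and Polr2e (0.96), and Tbx21 by Cyb5d2 (0.98), Alyref2 (0.98) and Rsbn1l (0.95). Il12b was followed by Tirap, an adaptor of Toll-like receptors (0.97), Add3 (0.96) and Eif3j2 (0.93), and Il12rb2 by Got1 (0.99) and Trim65 (0.98). Between members r was -0.44 for Ebi3 with Il12b, -0.61 for Ebi3 with Tbx21 and 0.48 for Il12b with Tbx21. For Il12rb2 it was -0.78 with Ebi3, 0.61 with Il12b and 0.50 with Tbx21.

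Markers of other cells are given because p35 is mainly made by cDC1, the other conventional DC subset, and p40, p28 and EBI3 also by macrophages and monocytes. The 8 cDC1 markers summed to 1105 to 1398 CPM in infants and 866 to 1180 CPM in adults, most of it Irf8, while Xcr1, which defines cDC1, had 11 to 38 reads in infants and 21 to 62 in adults. Macrophage markers summed to 411 to 1265 CPM in infants and 436 to 953 CPM in adults, and monocyte markers to 161 to 444 and 148 to 305 CPM. Infant 3 was highest for both and was also the highest infant for Il12b and Il27. Adult 3 was the highest adult for both, at 953 and 305 CPM, and was the highest adult for Il27 but the lowest for Il12b. Infant 4 was the lowest infant for both and the highest for Ebi3. Neutrophil markers lay at 14.7 to 41.7 CPM in infants and 18.2 to 25.4 CPM in adults, B cell markers at 32.2 to 48.5 and 31.0 to 33.5 CPM, plasmacytoid DC markers at 150.3 to 185 and 173 to 189 CPM, and cDC2 markers at 159 to 368 and 334 to 387 CPM. At an unadjusted p under 0.05, the macrophage markers Marco (log2 fold change -1.78, SE 0.43) and Mertk (-0.96, SE 0.35) were lower and Adgre1 (0.50, SE 0.13) higher in infants. Itgae of the cDC1 list was lower (-1.28, SE 0.47) and Cd79b of the B cell list higher (0.56, SE 0.20). No marker in these lists was at 0 in every library. Their part in the member values was not tested.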

How the data were processed

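RNA-seq libraries of sorted CD11b+ migratory dendritic cells, 4 from infants and 3 from adults, were grouped by the age in their labels. Per the file headers, the authors deposited whole read counts per gene in 1 table per library, with separate columns for exons, exon junctions and introns, each as all reads and as uniquely mapped ones. The authors' RPKM values are all exon reads scaled by exon length and library total, which was checked on the files, and the authors' TPM values were not used in a test. The submitters' processing notes list Cuffnorm 2.2.1, Cuffdiff 2.2.1, Cufflinks 2.2.1.0, TopHat2 (2.1.0 and 2.0.14), TopHat and the mm10 build, without saying what each did. The sources used here do not name the counting program or its strand setting.

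Total exon reads were tested with edgeR 4.0.16 in R 4.3.3 (filterByExpr by group, TMM, glmQLFit with robust estimation, glmQLFTest), with Benjamini-Hochberg adjustment over 12261 genes and a threshold of 0.05. SE is the log2 fold change over the square root of F, and CPM uses TMM-scaled library sizes. With 18022302 to 22316484 reads per library, 3 reads are 0.134 to 0.166 CPM. Chain ratios were log2 ratios of exon reads per kilobase with 0.5 reads added, tested by two-sided exact permutation (scipy 1.17.1). Alternatives were DESeq2 1.42.0, limma 3.58.1 on voom weights and on log2(RPKM + 1) or log2(RPKM + 0.1), other scalings, filters, thresholds and read types, the replicate number as a block, and each library left out. Exon-exon reads were added after the data were seen. The edgeR and ratio steps were tested on simulated data. Members, lists and markers were chosen with earlier results of these data known. Named are the 8 members, up to 4 genes with the smallest p of each list, and the 3 genes most like each member whose average log2 CPM reaches 3, except genes that are not reported here. Overlapping genes and 99.2% of gene identifiers were matched in GENCODE M21. Itgam is the first of its entries in the files.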

Additional observations from a re-analysis of the deposited data

Results flagged for a closer look

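Ratios, gene levels and marker sums were searched in the 4 infant libraries for 1 library far from the other 3, which chance gives in about 1 of 20 such groups, and 24 were searched. The log2 ratio of Tbx21 to Il12b was -4.98 in infant 2, above the other infants at -5.22 to -5.20. The log2 ratio of Il23a to Il12b was -12.58 in infant 3, below the other infants at -12.38, where all 4 infants had 0 Il23a reads and the value follows from their Il12b reads alone. The summed level of cDC1 markers was 1398 CPM in infant 3, above the other infants at 1105 to 1135 CPM.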

How the results depend on the processing

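Across members and alternatives, 135 fold changes kept their direction and their side of the threshold, 4 turned and 1 newly passed. Ebi3 passed by DESeq2 alone (log2 fold change 0.63), so that 1 member passed there. The log2 fold change of Il12a turned to -0.17 without adult 1 and -0.36 without infant 2 (range -0.36 to 0.63 with 1 library left out), that of Il27 to 0.22 without adult 3 (-0.35 to 0.22) and that of Il12rb1 to 0.59 without adult 3 (-1.05 to 0.59). Of the ratios, Il12a over Il12b turned to -0.14 without adult 1 and -0.0062 without infant 2 (-0.14 to 0.92), and Il12rb2 over Il12rb1 to 0.26 without adult 2 (-1.26 to 0.26). The cause was not tested. The number of genes past the threshold, 2 by edgeR, was 193 by DESeq2, 8 with no filter, 6 at an adjusted p of 0.1, 1 on log2(RPKM + 1) with and without filter and on log2(RPKM + 0.1), 1 on exon-exon reads, and 2 to 10 with 1 library left out (10 without adult 1, and 4 without adult 3, infant 1 or infant 2). With the replicate number as a block it was 1, and the block called no member. Libraries with the same number showed little shared deviation (r = 0.033, -0.035 and 0.10, against -0.185 to 0.15 for different numbers). So few values cannot show whether the numbers pair the libraries, and the main test did not use them. Depth limits Il23a, Il12a and Il12rb1, at no more than 8, 33 and 47 reads in a library.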
